A study of Danio rerio with 12 samples.

Results

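The transcripts described here belong to 7 genes of nucleotide synthesis and folate supply: dhodh, cad, umps, paics, gart, atic and shmt2. They were chosen by gene symbol in the platform annotation, 7 of 8793 named genes, with 9 of the 15502 probe sets tested. The genes cad and shmt2 had 2 probe sets each, and the other genes had 1 each. All 9 were tested, and no filter on low values was applied. The Entrez gene identifiers are 494065 for dhodh, 266992 for cad, 393143 for umps, 321193 for paics, 58141 for gart, 140622 for atic and 100144628 for shmt2.

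RNA of whole embryos, taken 80 hours after fertilization, was hybridised to 12 Affymetrix zebrafish arrays, 3 for each of 4 genotypes. BRAF;p53 embryos were homozygous for a stable transgene that expresses BRAF V600E, an activated human kinase, from the mitf promoter, and also homozygous for the p53 M214K loss-of-function allele. BRAF embryos carried the homozygous transgene with intact p53. The p53 embryos carried the homozygous M214K allele without the transgene. Wild-type embryos were of the Tu strain. The mitf promoter drives the transgene in pigment cells and their precursors, a minor part of the embryo, whereas the p53 allele is present in all cells. The number of embryos per sample and whether the lines share the Tu background are not given in the labels, so genotype and line cannot be told apart. Nothing says that replicates came from separate clutches, so p-values measure the spread between samples, and some of it may be technical. In whole-embryo RNA, fewer cells of a type and less RNA per cell cannot be told apart.

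Cells make pyrimidines by building the ring first. The large enzyme encoded by cad performs the opening steps, dhodh oxidises dihydroorotate to orotate at the inner mitochondrial membrane, and umps converts orotate to UMP. Purines are instead built stepwise on a ribose phosphate by a chain of enzymes that includes those encoded by gart, paics and atic, ending in IMP. The mitochondrial enzyme encoded by shmt2 splits serine into glycine and a 1-carbon unit on folate, and formyl folate is a substrate for gart and atic. Purines are also the material of the reflecting crystals in iridophores, and GTP is the starting point of the yellow pteridines of xanthophores. In zebrafish, DHODH has been studied as a target of leflunomide in the neural crest.

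Values are on the log2 scale and were centred by the authors near each probe set's median, so 0 is the median of the 12 arrays. How bright a probe set was is not known, and levels of different genes are not compared. A difference of 1 is 2-fold. A change is called where the limma adjusted p over all 15502 probe sets is under 0.05. Markers of tissues could not be checked for presence, since the centring removed their level. BRAF replicate 1 stood apart from its genotype: its correlation with the other BRAF arrays over all probe sets was 0.41 and 0.56, against 0.83 between those arrays. It was the highest BRAF array for 8 of the 9 probe sets, and for 60.3% of all probe sets. The p53 replicate 3 array correlated with its own genotype at 0.47 and 0.48, against 0.75 between replicates 1 and 2. Replicates 1 and 2 are named 1a and 1b in the labels and replicate 3 is named 2, so replicates 1 and 2 may come from 1 sample, and p53 embryos may then have 2 independent samples in place of 3. With 1a and 1b averaged, the 8 calls of shmt2 and paics that involve p53 embryos all passed, with an adjusted p of up to 0.0463, whereas over all probe sets the calls in p53 against wild type numbered 156, beside 284.

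**Figure D1:**
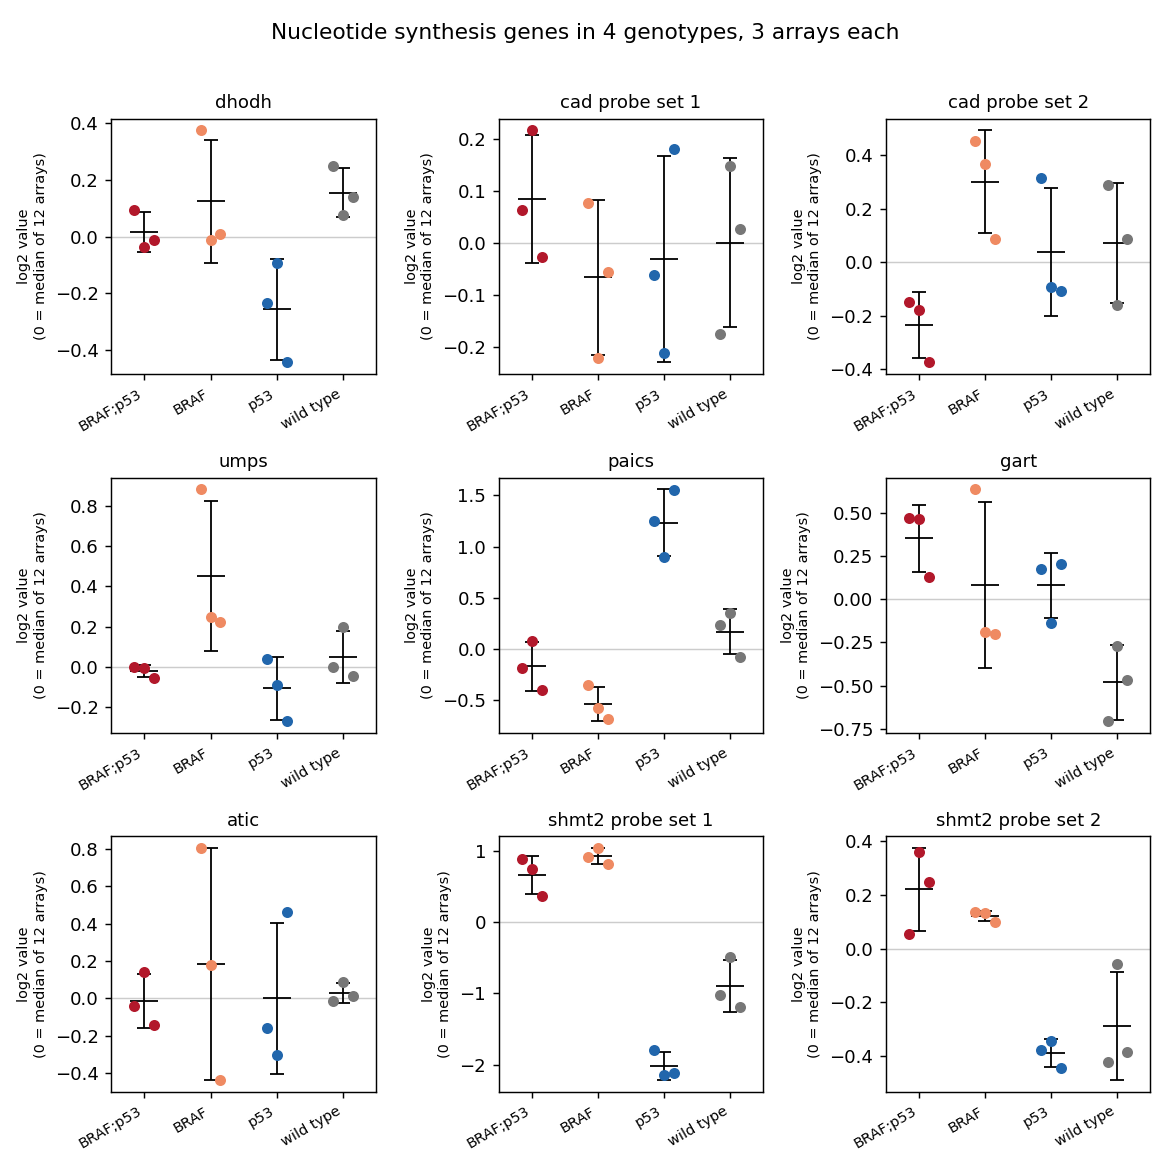
Log2 values of the 9 probe sets on each array (points, 3 per genotype), with the mean as a line and the SD as bars; the y axis differs between panels. The shmt2 probe sets are higher on the 6 arrays with the BRAF transgene, and paics is highest in p53 embryos, whereas the genotypes overlap for cad probe set 1 and atic.

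With all 12 arrays fitted, shmt2 and paics passed in at least 1 pairwise comparison, and dhodh, cad, umps, gart and atic passed in none. In BRAF and in p53 embryos shmt2 and paics had opposite signs against wild type. In BRAF;p53 against wild type 2 of the 9 probe sets passed, both of shmt2 and both higher, beside 1.95% of all probe sets (0.974% higher). The groups did not overlap for 3 of the 9, beside 25.3% of all. In BRAF against wild type shmt2 probe set 1 rose and paics fell, 2 of 9 beside 6.41% of all (3.19% higher and 3.22% lower), and groups did not overlap for 5, beside 28.4%. In p53 against wild type the same 2 probe sets passed with the signs turned, paics higher and shmt2 lower, beside 1.83% of all (0.755% higher and 1.08% lower), and groups did not overlap for 4, beside 19.1%. In BRAF;p53 against p53, 3 of 9 passed, with shmt2 higher on both probe sets and paics lower, beside 2.94% of all (1.5% higher and 1.44% lower). There 5 had no overlap, beside 21.9%. The same 3 passed in BRAF against p53, beside 7.44% of all (4.15% higher and 3.28% lower), and 5 had no overlap, beside 23.4%. In BRAF;p53 against BRAF limma called 0 of 9, beside 4.5% of all, with 2 at an unadjusted p under 0.05 (22% of all) and 2 with no overlap (29% of all). The interaction called 0 of 9, beside 3.21% of all, with 3 at an unadjusted p under 0.05 (18.8% of all). These comparisons share arrays. Over the 6 pairwise comparisons 3 of the 9 probe sets passed at least once, against 13% of all. The median difference of the 9 was -0.04 in BRAF;p53, 0.23 in BRAF and -0.03 in p53 embryos against wild type, beside -0.01, 0.05 and 0.00148 for all probe sets.

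The largest differences were in shmt2, which was high in both genotypes with the BRAF transgene and low in both without it. On probe set 1, the BRAF;p53 arrays had log2 values of 0.88, 0.74 and 0.37 and the BRAF arrays 0.92, 1.04 and 0.82. The p53 arrays had -1.79, -2.14 and -2.12 and the wild-type arrays -1.02, -0.49 and -1.18. Each of the 6 transgene carriers thus lay above each of the 6 non-carriers. Probe set 2 gave the same separation over a narrower span. It read 0.05, 0.36 and 0.25 in BRAF;p53 embryos and 0.13, 0.13 and 0.10 in BRAF embryos. It read -0.38, -0.34 and -0.44 in p53 embryos and -0.42, -0.06 and -0.38 in wild type. Of all probe sets, 1.43% had all 6 carriers above all 6 non-carriers, and 0.374% passed as higher in both BRAF against wild type and BRAF;p53 against p53.

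With p53 mutant, the transgene went with a shmt2 difference of 2.68 ± 0.19 on probe set 1 for BRAF;p53 against p53 embryos (SE from the limma fit of all 12 arrays, 3 per genotype, limma adjusted p = 4.04e-05). That is a 6.39-fold higher value. It ranked 6 by p among the 15502 probe sets. Probe set 2 rose by 0.61 ± 0.11, or 1.52-fold, in the same comparison (limma adjusted p = 0.015). With p53 intact, BRAF embryos exceeded wild type by 1.82 ± 0.19 on probe set 1, or 3.54-fold (limma adjusted p = 0.000225). The probe set 2 difference of 0.41 ± 0.11 did not pass there (limma adjusted p = 0.0542). It passed without wild-type replicate 2, the wild-type array with the highest shmt2 value on both probe sets, at 0.53 (limma adjusted p = 0.0198). Both probe sets rose in BRAF;p53 embryos against wild type, by 1.56 ± 0.19 and 0.51 ± 0.11 (limma adjusted p = 0.00135 and 0.0449). The call on probe set 2 held in 3 of 12 fits without 1 array, those without BRAF replicate 1, p53 replicate 3 or wild-type replicate 2. Without the other arrays its difference ran from 0.44 to 0.59, with an adjusted p of 0.0517 to 0.183, the highest without BRAF;p53 replicate 2.

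The level of shmt2 also differed between the genotypes without the transgene, on probe set 1. It was lower in p53 mutants than in wild type by -1.12 ± 0.19, a 2.17-fold lower value (limma adjusted p = 0.0131). Without p53 replicate 2 the difference was -1.05 (adjusted p = 0.0506), and with only these 6 arrays fitted the adjusted p was 0.0858. Probe set 2 had -0.10 ± 0.11 in that comparison, with a 95% interval of -0.35 to 0.14 (adjusted p = 0.755). Among transgene carriers, BRAF;p53 and BRAF embryos were neighbours in level, with a difference of -0.26 ± 0.19 on probe set 1 and 0.10 ± 0.11 on probe set 2 (adjusted p = 0.424 and 0.633). The 95% intervals were -0.67 to 0.15 and -0.15 to 0.34. From high to low, probe set 1 ran from BRAF at 0.92 ± 0.11 through BRAF;p53 at 0.66 ± 0.26 and wild type at -0.90 ± 0.36 to p53 at -2.02 ± 0.20 (SD, n = 3 each). The interaction, which is the transgene's difference with p53 mutant minus that with p53 intact, was 0.85 ± 0.26 on probe set 1 and 0.20 ± 0.16 on probe set 2, and neither passed (limma adjusted p = 0.113 and 0.525). After quantile normalization the interaction on probe set 1 was 1.28 and passed (adjusted p = 0.0417).

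On probe set 1 the single mutants set side by side differed most, whereas on probe set 2 BRAF;p53 against p53 embryos did. BRAF exceeded p53 embryos by 2.94 ± 0.19 on probe set 1, or 7.67-fold, and by 0.51 ± 0.11 on probe set 2 (limma adjusted p = 9.55e-06 and 0.0192). The probe set 2 call ended without BRAF replicate 2, at 0.51 (adjusted p = 0.0555), and without p53 replicate 3, at 0.48 (adjusted p = 0.053). In BRAF;p53 against p53 it ended without BRAF;p53 replicate 2 or 3 (0.54 and 0.59, adjusted p = 0.0775 and 0.0537). The calls on probe set 1 in these comparisons and against wild type held in each of the 12 fits without 1 array, except p53 against wild type.

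**Figure D2:**
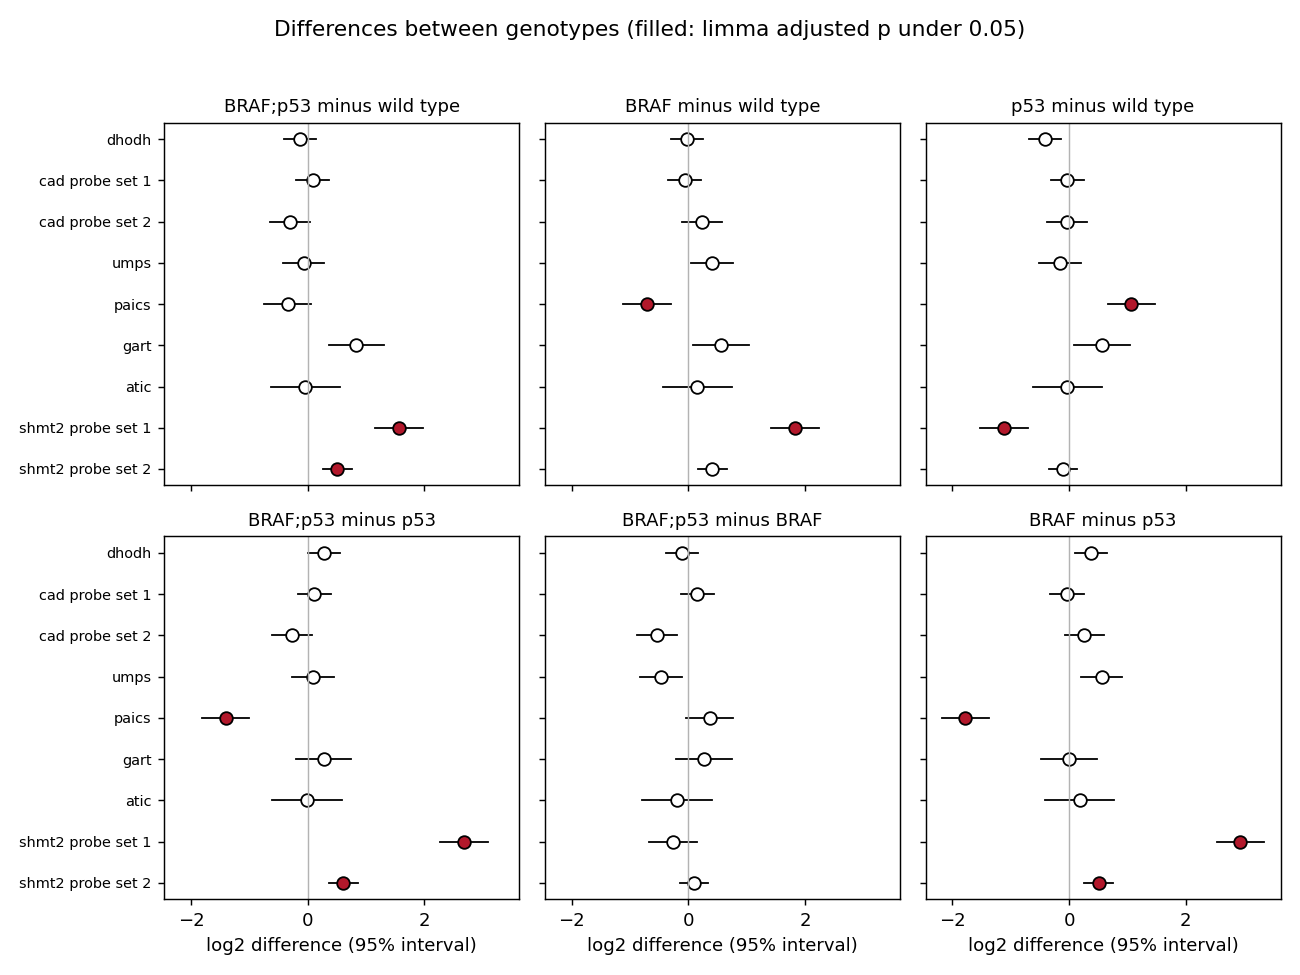
Log2 differences between genotypes for the 9 probe sets in 6 comparisons, with 95% intervals from the limma fit as lines; filled points passed at a limma adjusted p under 0.05. The filled points are all paics and shmt2, and in BRAF;p53 against BRAF no point is filled.

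The purine gene paics, whose enzyme carries out a carboxylation and the joining of aspartate in the middle of the chain, was high in p53 embryos alone. The BRAF;p53 arrays had log2 values of -0.19, 0.07 and -0.41 and the BRAF arrays -0.36, -0.58 and -0.69. The p53 arrays had 1.25, 0.90 and 1.55 and the wild-type arrays 0.23, 0.35 and -0.08. The lowest p53 array lay above the highest array of any other genotype. Levels ran from p53 at 1.23 ± 0.33 through wild type at 0.17 ± 0.22 and BRAF;p53 at -0.17 ± 0.24 to BRAF at -0.54 ± 0.17 (SD, n = 3 each).

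In p53 mutants paics rose by 1.07 ± 0.18 against wild type, or 2.10-fold (SE from the limma fit of all 12 arrays, 3 per genotype, limma adjusted p = 0.0144). The call ended without wild-type replicate 3, at 0.95 (adjusted p = 0.0568). BRAF;p53 embryos had less paics than p53 embryos by -1.41 ± 0.18, a 2.65-fold lower value, and BRAF embryos less by -1.78 ± 0.18, a 3.43-fold lower value (limma adjusted p = 0.00204 and 0.000247). Both of these calls held in each of the 12 fits without 1 array. Against wild type, paics fell by 0.71 ± 0.18 in BRAF embryos (limma adjusted p = 0.0437). That call was lost without BRAF replicate 2 or 3, BRAF;p53 replicate 1, p53 replicate 1 or wild-type replicate 1 or 2, with differences of -0.71 to -0.62 and an adjusted p of 0.0619 to 0.158. The BRAF;p53 difference from wild type was -0.34 ± 0.18, with a 95% interval of -0.74 to 0.06, and that from BRAF was 0.37 ± 0.18, with an interval of -0.03 to 0.77 (adjusted p = 0.498 and 0.264). Neither difference passed, but both intervals reach past 0.71 in size, the fall called in BRAF embryos. The interaction of -0.70 ± 0.26 did not pass (limma adjusted p = 0.179).

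The gene next to paics on one side in the RefSeq order (assembly GRCz12tu) is ppat, whose enzyme commits the cell to purine synthesis. It did not have the p53 peak of paics. The p53 arrays read -0.03, -0.25 and 0.10 for ppat, against 0.03, -0.10 and -0.03 in wild type. The difference was -0.03 ± 0.12, with a 95% interval of -0.28 to 0.23 (limma adjusted p = 0.95), so a change of the size seen in paics lies outside it. In BRAF;p53 embryos ppat read 0.36, 0.38 and 0.31, above every other array, but its differences of 0.38 ± 0.12 from wild type and 0.41 ± 0.12 from p53 embryos did not pass (limma adjusted p = 0.149 and 0.0996).

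The purine genes gart and atic did not pass in any pairwise comparison. For gart, which encodes an enzyme of several purine steps including a formyl transfer, wild type was lowest. The BRAF;p53 arrays had log2 values of 0.47, 0.46 and 0.13, the BRAF arrays 0.64, -0.19 and -0.20, and the p53 arrays 0.17, -0.14 and 0.20, against -0.71, -0.27 and -0.47 in wild type. Every array of the other genotypes lay above every wild-type array. The differences from wild type were 0.83 ± 0.22 in BRAF;p53, 0.56 ± 0.22 in BRAF and 0.56 ± 0.22 in p53 embryos (SE over 3 arrays of each genotype; limma adjusted p = 0.0844, 0.168 and 0.261). These share their wild-type arrays. The BRAF;p53 difference passed without BRAF replicate 1 (adjusted p = 0.0111), after quantile normalization (0.95, adjusted p = 0.0167) and with only the 6 arrays compared (adjusted p = 0.0198). Without BRAF replicate 1, the BRAF difference was 0.28.

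For atic, which encodes the enzyme of the final steps to IMP, the spread within genotypes exceeded the differences. The BRAF arrays alone ran from -0.43 to 0.80, and the p53 arrays from -0.30 to 0.46. BRAF;p53 arrays lay between -0.14 and 0.14 and wild-type arrays between -0.01 and 0.09. The 6 pairwise differences ran from -0.20 to 0.18, each with an SE of 0.27.

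The pyrimidine gene dhodh was lowest in p53 embryos, and no comparison passed. Its log2 values were 0.10, -0.03 and -0.01 in BRAF;p53 embryos and 0.38, -0.01 and 0.01 in BRAF embryos. They were -0.23, -0.09 and -0.44 in p53 embryos and 0.25, 0.08 and 0.14 in wild type. The p53 arrays lay below every other array. Their difference from wild type was -0.41 ± 0.12, with a 95% interval of -0.68 to -0.14 (SE from the limma fit of all 12 arrays, 3 per genotype, limma adjusted p = 0.143). BRAF;p53 exceeded p53 embryos by 0.27 ± 0.12, with an interval of 0.0004 to 0.55, and BRAF exceeded p53 embryos by 0.38 ± 0.12 (limma adjusted p = 0.324 and 0.0928). The transgene with p53 intact went with a difference of -0.03 ± 0.12 against wild type, with an interval of -0.30 to 0.24 (adjusted p = 0.911). BRAF;p53 embryos differed from wild type by -0.14 ± 0.12 (interval -0.41 to 0.13) and from BRAF embryos by -0.11 ± 0.12 (adjusted p = 0.77 and 0.634). Without p53 replicate 3, p53 embryos differed from wild type by -0.32 (limma adjusted p = 0.265). BRAF;p53 then exceeded p53 embryos by 0.18 (limma adjusted p = 0.53). Without BRAF replicate 1, BRAF exceeded p53 embryos by 0.26 (limma adjusted p = 0.212). In that fit the p53 difference from wild type stayed at -0.41 (limma adjusted p = 0.0547). None of the 12 fits without 1 array called dhodh in any of the 6 comparisons.

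For umps, which completes UMP synthesis, BRAF embryos were highest. The BRAF;p53 arrays had log2 values of -0.0016, -0.0036 and -0.06, the BRAF arrays 0.88, 0.25 and 0.22, the p53 arrays 0.04, -0.09 and -0.27, and the wild-type arrays 0.0016, 0.20 and -0.05. All 3 BRAF arrays lay above all other arrays, and BRAF replicate 1 stood far above the rest. BRAF embryos differed from wild type by 0.40 ± 0.16, from p53 embryos by 0.56 ± 0.16, and BRAF;p53 from BRAF embryos by -0.47 ± 0.16 (limma adjusted p = 0.185, 0.0642 and 0.13). Without BRAF replicate 1 these were 0.18, 0.34 and -0.26 (adjusted p = 0.341, 0.0937 and 0.226). The difference from p53 embryos passed without BRAF replicate 3, at 0.67 (adjusted p = 0.0421).

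The 2 probe sets of cad, which encodes the enzyme of the opening steps, differed in pattern. Probe set 1 ran from -0.22 to 0.22 over the 12 arrays, with all genotypes overlapping and pairwise differences of -0.07 to 0.15, each with an SE of 0.13. Probe set 2 had lower values in BRAF;p53 embryos, at -0.15, -0.18 and -0.37, against 0.45, 0.37 and 0.09 in BRAF embryos. That difference of -0.53 ± 0.15 did not pass (SE from the limma fit of all 12 arrays, 3 per genotype, limma adjusted p = 0.0764), and probe set 1 had 0.15 ± 0.13 in the same comparison (limma adjusted p = 0.514). The 2 probe sets had opposite signs there.

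**Figure D3:**
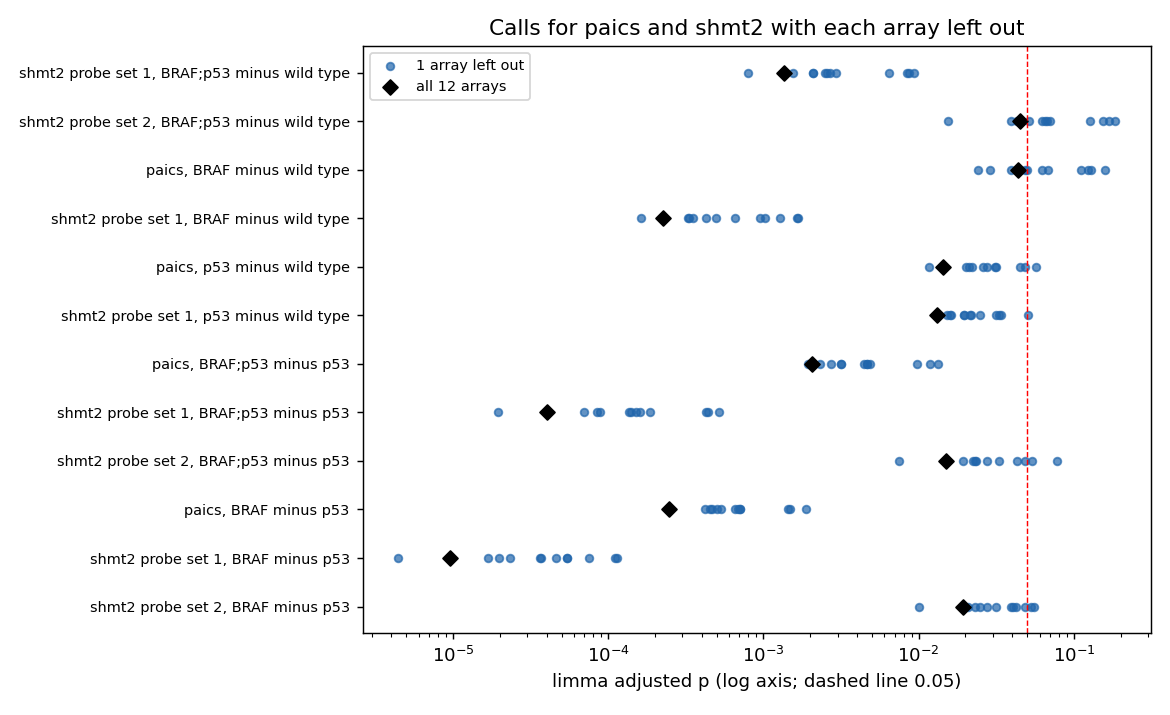
Limma adjusted p (log axis) for the 12 calls in paics and shmt2 with all 12 arrays (diamonds) and with each array left out in turn (circles); the dashed line is 0.05. Calls on shmt2 probe set 1 other than p53 against wild type stay left of the line, whereas those for paics in BRAF and in p53 against wild type, shmt2 probe set 1 in p53 against wild type and shmt2 probe set 2 cross it.

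Beyond these 7 genes, 50 other genes of nucleotide metabolism had 61 probe sets. They covered pyrimidine synthesis, purine synthesis, folate and 1-carbon metabolism, deoxynucleotide synthesis, and salvage and breakdown. Limma called 0 of the 61 in BRAF;p53 and 0 in p53 embryos against wild type, beside 1.95% and 1.83% of all probe sets. At an unadjusted p under 0.05 were 7 and 12 of the 61, beside 13% and 14.3% of all probe sets. In BRAF embryos 5 rose and 3 fell against wild type, or 13.1% of the 61 beside 6.41% of all probe sets. The list median there was 0.07, beside 0.05 for all probe sets. In BRAF;p53 against BRAF 1 rose and 5 fell, 9.84% beside 4.5% of all probe sets. Against p53 embryos, 1 rose and 1 fell in BRAF;p53 embryos, 3.28% beside 2.94%. In BRAF against p53 embryos 2 rose and 4 fell, 9.84% beside 7.44%.

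None of the other 8 purine synthesis genes passed against wild type, with 9 probe sets in all. In BRAF;p53 embryos the nearest to passing, ppat and the ribose phosphate gene prps1a, had 0.38 and 0.45 (limma adjusted p = 0.149 and 0.21). In BRAF embryos, impdh2 of GTP synthesis had 0.37 and adss1 of AMP synthesis 0.30 (limma adjusted p = 0.0794 and 0.084). The adss1 probe set fell by 0.44 ± 0.09 in BRAF;p53 against BRAF embryos (limma adjusted p = 0.0203). Omitting BRAF replicate 3 or BRAF;p53 replicate 1 or 3 ended that call (-0.47 to -0.39, adjusted p = 0.0528 to 0.0673). The 2 other pyrimidine genes, ctps1a of CTP synthesis and the UMP kinase gene cmpk, ran from -0.32 to 0.22 over the 6 pairwise comparisons and did not pass.

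Of 11 other folate and 1-carbon genes (15 probe sets), mthfd1b rose and slc46a1 fell in BRAF embryos against wild type. The gene mthfd1b, whose product interconverts 1-carbon forms of folate, read 0.86, 0.65 and 0.49 in BRAF embryos, against -0.05, 0.17 and -0.06 in wild type, and rose by 0.64 ± 0.13 (limma adjusted p = 0.0143). It was also higher in BRAF than in p53 embryos, by 0.93 ± 0.13, and lower in BRAF;p53 embryos than in BRAF ones, by -0.59 ± 0.13 (limma adjusted p = 0.0018 and 0.031). The call against wild type ended on omitting wild-type replicate 1 or 3 (0.61 each, adjusted p = 0.0573 and 0.0561), and that against BRAF embryos on omitting BRAF replicate 1 or 2 or BRAF;p53 replicate 1 or 2 (-0.59 to -0.49, adjusted p = 0.0725 to 0.14). The folate transporter gene slc46a1 fell by 0.98 ± 0.22 in BRAF embryos against wild type (limma adjusted p = 0.0206). It read -0.74, -0.52 and -0.10 in BRAF embryos, against 0.07, 0.63 and 0.87 in wild type. Omitting BRAF replicate 1 or 2 or wild-type replicate 2 or 3 ended this call (-0.94 to -0.80, adjusted p = 0.0557 to 0.0807). The methionine synthase gene mtr, which returns methyl folate to the pool, had less signal in BRAF;p53 than in BRAF embryos, by -0.76 ± 0.14 (limma adjusted p = 0.0136), and omitting BRAF;p53 replicate 1 or 2 ended the call (-0.75 and -0.69, adjusted p = 0.0574 and 0.0679). In BRAF;p53 embryos mthfd1b had a difference of 0.06 from wild type (limma adjusted p = 0.964).

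Of 11 deoxynucleotide genes, tk1 alone passed in BRAF embryos against wild type, and its probe sets went opposite ways. Probe set 1 of this thymidine kinase gene read 0.61, 0.36 and 0.80 in BRAF embryos, against -0.20, -0.03 and -0.16 in wild type, a rise of 0.72 ± 0.13 (limma adjusted p = 0.0077). Probe set 2 read -0.90, -0.68 and -0.36 in BRAF embryos, against 0.03, 0.30 and 0.14 in wild type, a fall of 0.80 ± 0.13 (limma adjusted p = 0.00341). No direction can be given for tk1 as a gene, and the mean of its probe sets differed by -0.04. The ribonucleotide reductase subunit gene rrm2b, a p53 target in mammals, was higher in BRAF;p53 than in p53 embryos by 0.67 ± 0.16 (limma adjusted p = 0.0497). The call stood only on omitting BRAF replicate 1 or 3, p53 replicate 1 or wild-type replicate 2, and the other omissions gave 0.56 to 0.69 (adjusted p = 0.0668 to 0.174). Against wild type rrm2b had -0.67 in p53 embryos (adjusted p = 0.0687). The gene tyms had -0.56 ± 0.16 in BRAF;p53 and -0.45 ± 0.16 in p53 embryos against wild type, and neither passed (limma adjusted p = 0.116 and 0.222). In BRAF;p53 embryos nme2b.2 had -0.31 ± 0.14 against wild type (limma adjusted p = 0.361).

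Of 18 salvage and breakdown genes, ampd3b, dpydb and ada2a rose and hprt1 fell in BRAF embryos against wild type. The purine salvage gene hprt1 fell by 0.57 ± 0.13 (limma adjusted p = 0.0206). The AMP deaminase gene ampd3b rose by 0.72 ± 0.18, the pyrimidine breakdown gene dpydb by 0.64 ± 0.16 and the adenosine deaminase gene ada2a by 0.95 ± 0.25 (limma adjusted p = 0.0342, 0.0348 and 0.048). The ada2a call stood only on omitting BRAF or wild-type replicate 3 (other omissions 0.70 to 0.96, adjusted p = 0.0507 to 0.167). The dpydb call ended on omitting any BRAF or BRAF;p53 array or wild-type replicate 2 (0.44 to 0.65, adjusted p = 0.0544 to 0.0919). In p53 embryos dpydb had 0.67 ± 0.16 against wild type, which did not pass (limma adjusted p = 0.06), so a rise of that size was not particular to BRAF embryos. The ampd3b call ended on omitting BRAF replicate 2 or 3, BRAF;p53 replicate 2 or wild-type replicate 1 or 2 (0.56 to 0.79, adjusted p = 0.0542 to 0.126). The hprt1 call ended on omitting BRAF replicate 3 or wild-type replicate 1 or 2 (-0.58 to -0.49, adjusted p = 0.0613 to 0.0839). Another ada2a probe set had 0.22. The named ada2a probe set had lower values in BRAF;p53 than in BRAF embryos, by -1.69 ± 0.25 (limma adjusted p = 0.00398). The uridine kinase family gene uckl1b was lower in BRAF;p53 than in p53 embryos by -0.51 ± 0.10 and lower in BRAF than in p53 embryos by -0.69 ± 0.10 (limma adjusted p = 0.0267 and 0.00246). The first of these ended on omitting any BRAF;p53 array or p53 replicate 1 or 2 (-0.52 to -0.46, adjusted p = 0.0698 to 0.119). Its p53 arrays read 0.57, 0.47 and 0.38, above the wild-type arrays at 0.10, 0.16 and 0.01. BRAF embryos also had less of the adenosine kinase gene adka than p53 embryos, by -0.53 ± 0.12 (limma adjusted p = 0.0211), a call that ended on omitting BRAF replicate 1 or p53 replicate 3 (-0.46 and -0.41, adjusted p = 0.0547 and 0.0562).

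**Figure D4:**
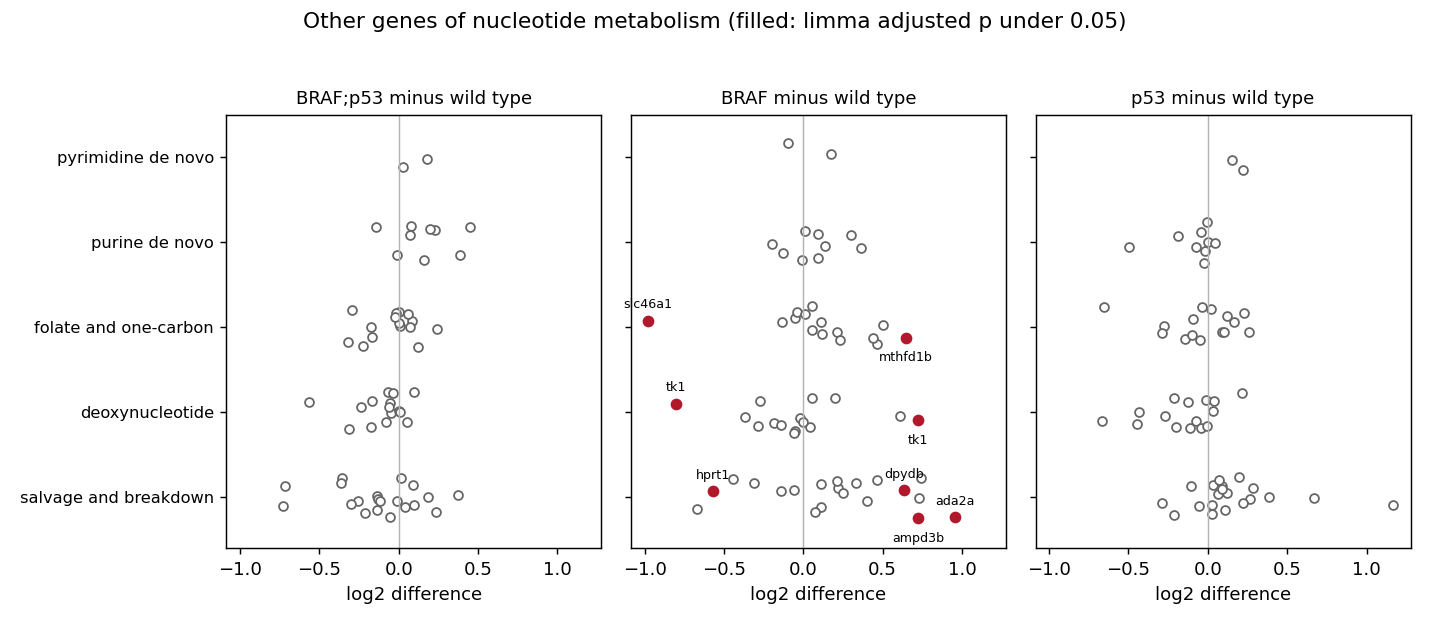
Log2 differences from wild type for the 61 probe sets of other nucleotide metabolism genes, by list, in BRAF;p53, BRAF and p53 embryos; filled points, with gene names, passed at a limma adjusted p under 0.05. In the middle panel 8 points are filled, 2 of them tk1 probe sets on opposite sides of 0, and in the outer panels none is.

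Markers of other cell types were read beside these results, as means of centred log2 values per array. The 13 genes of proliferating cells (20 probe sets) had means of -0.14 to 0.02 in BRAF;p53, -0.15 to 0.07 in BRAF, -0.19 to -0.06 in p53 and -0.13 to 0.10 in wild-type embryos. Limma called 0 of the 20 in BRAF;p53 against p53 embryos (2.94% of all probe sets), with 1 at an unadjusted p under 0.05 (15.4% of all). It called 1, lower, in BRAF against wild type (6.41% of all). The part of these genes in the results above was not tested. Of 9 liver genes (11 probe sets), the means were -0.24 to -0.12 in BRAF;p53, 0.03 to 0.07 in BRAF, 0.11 to 0.36 in p53 and -0.26 to -0.08 in wild-type embryos. These means were highest in the p53 arrays, as was paics. In p53 against wild type 10 of the 11 differences were positive, and limma called 1 higher and 1 lower, beside 1.83% of all probe sets. In BRAF;p53 against p53 embryos 8 were negative and 3 positive, with 1 called, lower, beside 2.94% of all. In BRAF against p53 embryos 6 were negative and 5 positive, with 3 called, all lower, beside 7.44% of all. In BRAF against wild type limma called 2 higher and 4 lower, beside 6.41% of all. The part of the liver genes in the paics result was not tested. Means of 10 exocrine pancreas genes (12 probe sets) were -1.81 to -1.10 in BRAF;p53, -0.40 to 1.40 in BRAF, -1.75 to 1.78 in p53 and -2.07 to 0.81 in wild-type embryos. All 12 were lower in BRAF;p53 than in BRAF embryos, with a median difference of -1.97. Limma called 0 of them (4.5% of all probe sets), with 8 at an unadjusted p under 0.05 (22% of all). All 12 were higher in BRAF than in wild-type embryos, with a median of 0.89. There limma called 0 (6.41% of all), with 3 at an unadjusted p under 0.05 (21.1% of all). The median interaction was -2.61, with all 12 negative. Limma called 0 of these (3.21% of all), with 5 at an unadjusted p under 0.05 (18.8% of all). Among the 61 other nucleotide metabolism probe sets, the 5 called rises in BRAF embryos against wild type went the same way as this list. So did the 5 called falls in BRAF;p53 against BRAF embryos, of mthfd1b, mtr, adss1, ada2a and tk1 probe set 1. The 3 called falls in BRAF embryos against wild type, of slc46a1, hprt1 and tk1 probe set 2, went the other way. The 1 called rise in BRAF;p53 against BRAF embryos, of tk1 probe set 2, did too. All 12 pancreas differences shared 1 sign in each of these comparisons, so any call had to match or oppose them. The matches therefore only restate how many calls rose and fell. The part of this list in those results was not tested. Among pigment markers, 3 melanophore genes had means of 0.25 to 0.40 in BRAF;p53, -0.12 to 0.27 in BRAF, -0.67 to 0.05 in p53 and -0.12 to 0.01 in wild-type embryos. The BRAF and wild-type arrays overlapped in this list, whereas BRAF;p53 arrays lay above all wild-type arrays. The 2 iridophore genes had means of 0.19 to 0.32 in BRAF;p53, -0.12 to 0.01 in BRAF, -0.01 to 0.08 in p53 and -0.06 to 0.06 in wild-type embryos. For 5 xanthophore genes (10 probe sets) the means were -0.02 to 0.09 in BRAF;p53, -0.19 to 0.20 in BRAF, -0.10 to 0.05 in p53 and 0.04 to 0.15 in wild-type embryos. In BRAF;p53 against p53 limma called 1 of 3 melanophore and 1 of 10 xanthophore probe sets, both higher, and 0 of 2 iridophore ones (2.94% of all). In BRAF against wild type it called 1 xanthophore probe set, lower, and 0 melanophore and 0 iridophore ones (6.41% of all). In BRAF;p53 against BRAF, where 4.5% of all were called, it called 1 melanophore and 1 iridophore probe set, both higher. There it also called 1 xanthophore probe set higher and 1 lower. The part of these pigment markers in the shmt2 result was not tested.

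**Figure D5:**
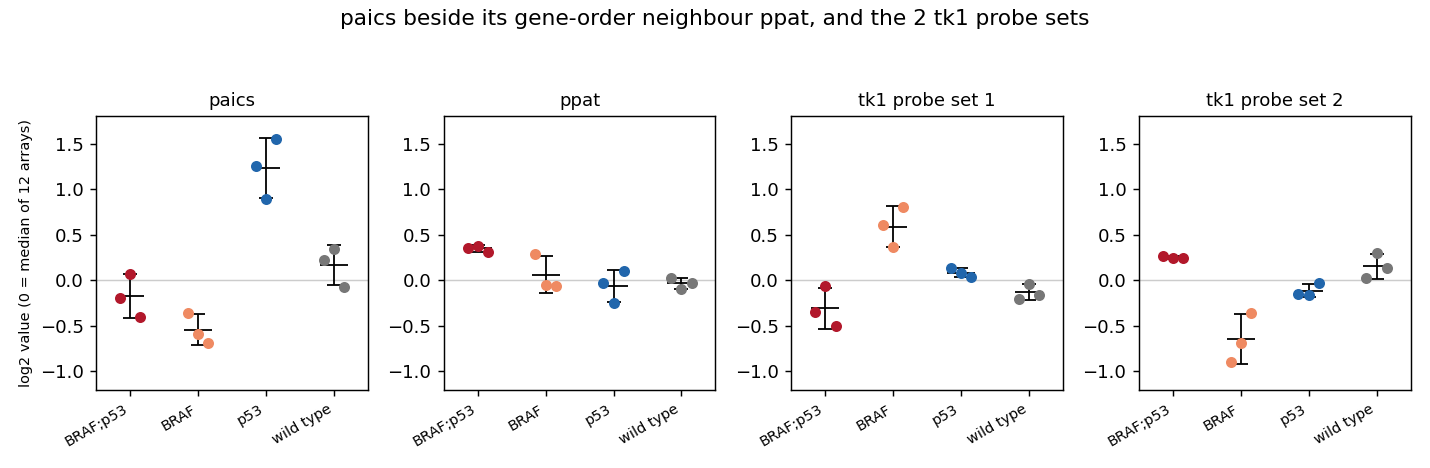
Log2 values on each array (points), with mean and SD, for paics, its chromosomal neighbour ppat and the 2 tk1 probe sets; all panels share 1 scale. The p53 arrays stand high for paics and near 0 for ppat, and the BRAF arrays stand high on tk1 probe set 1 and low on probe set 2.

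The probe sets most like those of shmt2, paics and dhodh over the 12 arrays were found by the root mean square difference of their log2 values, each centred on its own mean. They were picked as the nearest, so they lie below the median by that choice. For shmt2 probe set 1 they were those of rom1a, ptpra and efnb3b, at 0.48, 0.51 and 0.55, beside a median of 1.21 for all named probe sets. For shmt2 probe set 2 they were zgc:113030, tmem131 and cdk5, at 0.13, 0.15 and 0.15, beside a median of 0.33. For paics they were kdelr2a, acsl1a and mrps33, at 0.30, 0.31 and 0.34, beside a median of 0.73. For dhodh they were mrps28, ctu2 and capza1a, at 0.06, 0.08 and 0.08, beside a median of 0.25.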

How the data were processed

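The deposited log2 values of 12 Affymetrix zebrafish arrays are GCRMA values, as named without a version in the submitters' processing notes. From the values, 13937 of 15617 probe sets (89.2%) had a linear median of 1 within 0.0001, so the deposited log2 values were taken as centred per probe set, including all 9 described here. The 115 control probe sets were left out. The platform annotation gave gene names, updated through Entrez identifiers, and probe sets with several symbols stayed unnamed. Genotypes and replicate numbers came from sample titles.

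Limma 3.58.1 (R 4.3.3) fitted 1 mean per genotype over all 12 arrays, with two-sided tests adjusted by Benjamini-Hochberg over 15502 probe sets in each of 6 pairwise contrasts and the interaction. The fit was tested on simulated data. Members, gene lists and the naming rule (all members, list genes that passed, or else the 2 with the smallest p per list and contrast) were chosen with earlier results of these data known. Genes that the rule takes only for a small p are given in part. No source says that replicate numbers pair samples, and the fit did not pair them. Deviations of same-numbered arrays correlated at -0.32 to 0.36, above 0.1 in 7 of 18 pairs. This check cannot exclude pairing, since it used title numbers and the labels name the p53 arrays 1a, 1b and 2. No depth applies to arrays. Alternatives covered scaling, variance prior, replicate block, averaging, arrays used and call rule. Plots used matplotlib 3.10.9.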

Additional observations from a re-analysis of the deposited data

Results flagged for a closer look

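None of the 9 probe sets of the 7 genes passed the interaction between the BRAF transgene and p53 state. Among the other nucleotide metabolism genes named, 7 of 61 probe sets passed it (11.5%, beside 3.21% of all probe sets), meaning that the BRAF;p53 minus p53 difference was not equal to the BRAF minus wild-type difference (limma, SE, n = 3 per genotype). The interaction was -0.84 ± 0.20 for mtr (adjusted p = 0.0493), 1.41 ± 0.30 for slc46a1 (adjusted p = 0.0322), 0.96 ± 0.23 for rrm2b (adjusted p = 0.0462), -1.81 ± 0.36 for ada2a (adjusted p = 0.0208) and -1.27 ± 0.22 for dpydb (adjusted p = 0.0106). The tk1 probe sets had -1.11 ± 0.19 and 1.17 ± 0.18 (adjusted p = 0.00912 and 0.0054). The dpydb and tk1 calls stood whichever array was omitted. The ada2a call ended on omitting BRAF;p53 replicate 1 or 2, p53 replicate 2 or wild-type replicate 2 (-1.81 to -1.72, adjusted p = 0.0512 to 0.0598). The slc46a1 call stood on omitting BRAF replicate 1 or 3, BRAF;p53 replicate 1, p53 replicate 3 or wild-type replicate 1, and otherwise was 1.24 to 1.47 (adjusted p = 0.0562 to 0.0901). The rrm2b call stood on omitting BRAF or p53 replicate 1, and otherwise was 0.81 to 1.03 (adjusted p = 0.0584 to 0.114). The mtr call stood on omitting wild-type replicate 1, and otherwise was -0.92 to -0.71 (adjusted p = 0.0507 to 0.134). The 12 exocrine pancreas probe sets had a median interaction of -2.61, all of them negative, as were those of mtr, ada2a, dpydb and tk1 probe set 1. Those of slc46a1, rrm2b and tk1 probe set 2 were positive. With all 12 of 1 sign, any interaction had to match or oppose them, so this sorting only restates the signs of the 7 calls. The part of the exocrine pancreas genes in these results was not tested.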

How the results depend on the processing

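Of the 12 calls in paics and shmt2, 6 stood whichever single array was omitted, and of 51 uncalled values of the 7 genes, 23 changed sign and 6 passed under at least 1 alternative. Besides the calls named in the report, that of shmt2 probe set 2 in BRAF;p53 against wild type ended with a trended robust prior (adjusted p = 0.0972), with only the genotypes compared (0.0651) and with p53 1a and 1b as their mean (0.0618). In BRAF against p53 it ended after quantile normalization (0.061). The paics call in BRAF against wild type ended after quantile normalization (0.0699), with a trended robust prior (0.0893), with the replicate block (0.0638) and with only the genotypes compared (0.0501), and that in p53 against wild type with only the genotypes compared (0.0873). With the replicate number as a block, cad probe set 2 in BRAF;p53 against BRAF (-0.53, adjusted p = 0.0357), umps in BRAF against p53 (0.56, adjusted p = 0.0488) and shmt2 probe set 2 in BRAF against wild type (0.41, adjusted p = 0.0451) passed. Whether the numbers pair the arrays is not known. Of 12 arrays, 6 correlated best with an array of their own number. The replicate block gave 328 probe sets in BRAF;p53 against wild type, beside 302. As means of both probe sets, tk1 turned sign against its probe set 1, at -0.040 in BRAF against wild type, 0.00064 in BRAF;p53 against BRAF, -0.013 in BRAF against p53 and 0.027 for the interaction.

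Counts of probe sets called varied more. BRAF;p53 against wild type had 302, beside 774 after quantile normalization, 145 with an absolute log2 difference of at least 1, 836 with only these genotypes, 171 with genes averaged and 916 without BRAF replicate 1 and p53 replicate 3, a pair of omissions chosen after seeing the data. BRAF against wild type had 993, beside 350 at that difference, 598 with only these genotypes, 595 with genes averaged and 1766 without both arrays. The p53 against wild type count was 284, beside 156 with 1a and 1b averaged, 121 at that difference, 105 with only these genotypes, 146 with genes averaged and 688 without both arrays. BRAF;p53 against p53 had 456, beside 697 after quantile normalization, 254 with 1a and 1b averaged, 171 at that difference, 264 with genes averaged and 1227 without both arrays. BRAF;p53 against BRAF had 698, beside 220 at that difference, 434 with genes averaged and 1162 without both arrays. BRAF against p53 had 1153, beside 343 at that difference, 342 with only these genotypes and 698 with genes averaged. The interaction had 497, beside 312 with 1a and 1b averaged, 317 at that difference, 312 with genes averaged and 1469 without both arrays. Averaging genes also tests fewer features. Omitting 1 array gave 162 (BRAF;p53 replicate 1) to 510 (BRAF replicate 1) in BRAF;p53 against wild type, 595 (wild-type replicate 2) to 1188 (BRAF replicate 1) in BRAF against wild type and 161 (wild-type replicate 1) to 466 (BRAF replicate 1) in p53 against wild type. It gave 179 (BRAF;p53 replicate 1) to 688 (BRAF replicate 1) in BRAF;p53 against p53, 302 (BRAF;p53 replicate 1) to 982 (p53 replicate 3) in BRAF;p53 against BRAF, 822 to 1165 in BRAF against p53 and 284 (BRAF;p53 replicate 1) to 787 (p53 replicate 3) for the interaction. The causes of these shifts were not tested. Signal over background is not known from centred values, so dim probe sets could not be set apart.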

Other observations

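The genes lying nearest shmt2 on the chromosome were read after the shmt2 values had been seen, taking the nearest 5 measured genes on each side in the RefSeq order. These were snrpb, sp7, dctn2, mars1, gli1, slc32a1, aurka, prelid3b, pck1 and ccndbp1, with 11 probe sets. In BRAF;p53 against p53 embryos limma called 0 of the 11, with 1 at an unadjusted p under 0.05 (15.4% of all) and differences of -0.11 to 0.82. In BRAF against wild-type embryos it called 0 of the 11, with 2 at an unadjusted p under 0.05 (21.1% of all) and differences of -0.23 to 1.18. In BRAF against p53 embryos it called 0 of the 11, with differences of -0.12 to 1.01. There 3 had an unadjusted p under 0.05 (22.7% of all), snrpb, prelid3b and pck1, at 0.44, 0.45 and 1.01, the same sign as shmt2. The highest difference in each of these comparisons was that of pck1 (limma adjusted p = 0.439, 0.168 and 0.217). For paics, the nearest 10 genes had 14 probe sets, and 1 of these, of the cytochrome P450 gene cyp2p9, passed in p53 mutants against wild type, at -1.73 (adjusted p = 0.01), opposite in sign to paics. It also passed in BRAF;p53 and BRAF embryos against wild type, at -2.25 and -1.46 (adjusted p = 0.00151 and 0.00885). Of the other neighbours of paics, cep135 passed in BRAF;p53 against p53 embryos at -0.70 (adjusted p = 0.0299), the same sign as paics, and had -0.48 in BRAF against p53 and 0.25 in p53 against wild type (adjusted p = 0.0815 and 0.487). The gene cyp2p10 passed in BRAF against wild type at 0.47 (limma adjusted p = 0.0436), opposite in sign to paics. It had 0.48 in BRAF;p53 and 0.51 in p53 embryos against wild type (limma adjusted p = 0.0817 and 0.0671). In p53 embryos that is the same sign as paics. Of the 14 probe sets, 4 had an unadjusted p under 0.05 in p53 against wild type (14.3% of all). There were 5 in BRAF;p53 against p53 (15.4% of all), 2 in BRAF against wild type (21.1%) and 1 in BRAF against p53 (22.7%).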
